A study of Danio rerio with 5 samples.

Results

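The regions described here are wide stretches of the zebrafish genome in which captured methylated DNA was called at dome stage, at 24 hours post fertilisation (hpf) and at 48 hpf. They were selected on their width and on the presence of a call at each stage, by merging the MethylCap peaks of the 3 stages on chromosomes 1 to 25 wherever peaks shared at least 1 bp. Of 373137 merged regions, 118048 held a peak of every stage, and 2252 of these were 1500 bp wide or wider. These 2252 regions made up 0.604% of all merged regions and 1.91% of those called at every stage, and they covered 4.12 Mb, or 2.53% of all merged bases. Since the regions were chosen by the MethylCap lists, their width, peak number and fold are a description and carry no test. H3K27me3 took no part in the choice.

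The material was whole zebrafish embryos of mixed AB and Tubingen strain, and the labels name no mutation or treatment. MethylCap-seq uses a methyl-CpG binding domain to pull down methylated fragments for sequencing. It was done at dome, a late blastula stage, at 24 hpf, when the body plan is laid out, and at 48 hpf, near hatching. H3K27me3, the trimethylation of lysine 27 on histone H3, was profiled by ChIP-seq at dome and 48 hpf. Each of the 5 groups had 1 library of whole embryos, so stages were compared without replicates or p-values, and a mixture of cell types stands behind every peak. The number of embryos per library is not stated there.

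DNA methylation in vertebrates sits mainly on CpG dinucleotides. It is copied to new strands by the maintenance methyltransferase Dnmt1 and covers most of the genome outside CpG-rich promoters. Zebrafish embryos carry high methylation from the earliest stages. H3K27me3 is laid down by Polycomb repressive complex 2 and is best known from CpG-rich regulatory DNA of silent developmental genes, which is commonly free of DNA methylation.

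The wide regions were mostly built from several peaks rather than from a single broad one. Their median width was 1703 bp, the middle 50% lay between 1580 and 1944 bp, and the widest reached 3878 bp. Of the 2252 regions, 1271 (56.4%) were narrower than 1750 bp and 38 (1.69%) were 3000 bp or wider. The median MethylCap peak in the deposited lists was 370 bp at dome, 298 bp at 24 hpf and 309 bp at 48 hpf. In 1281 regions (56.9%) no single peak of any stage reached 1500 bp, and the width arose from overlap between peaks of different stages. Only 60 regions held a peak of at least 1500 bp at every stage, and in 55 an unbroken stretch of 1500 bp or more lay in peaks of all 3 stages.

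More peaks were called per region at 24 and 48 hpf than at dome. The regions held 3721 dome peaks, 4419 peaks of 24 hpf and 4291 peaks of 48 hpf, which is a mean of 1.65, 1.96 and 1.91 per region, with a maximum of 6 at each stage. The caller gave each peak 1 summit, so these are also the numbers of summits. More than 1 peak was present in 1191 regions at dome (52.9%, Wilson 95% interval 50.8 to 54.9%), in 1523 at 24 hpf (67.6%, 65.7 to 69.5%) and in 1492 at 48 hpf (66.3%, 64.3 to 68.2%). All such intervals in the text cover counting error only and treat regions as independent. The 24 hpf list was the longest of the 3. With every list reduced to the same number of peaks, the excess at 24 hpf over dome was absent. The shares were then 42.5% at dome, 40.9% at 24 hpf and 66.3% at 48 hpf, over 1823 regions. The 48 hpf list was the shortest and was cut least by this setting, so its share is not like for like. The part of list length in these shares was not tested.

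The commonest arrangement was 1 peak at dome and 2 at both later stages, found in 219 regions (9.72%). It was followed by 2 peaks at each stage in 213 regions and by a single peak at each stage in 198 (8.79%, 7.69 to 10.03%). A single dome peak was set against several peaks at both later stages in 448 regions (19.9%, 18.3 to 21.6%), and the opposite arrangement occurred in 107 (4.75%, 3.95 to 5.71%). Dome peaks in these regions had a median width of 757 bp, compared with 583 bp at 24 hpf and 466 bp at 48 hpf. In the lists as deposited, fewer peaks per region at dome than later thus went with wider dome peaks. With equal peak numbers per list, the share with more than 1 peak was not lower at dome (42.5%) than at 24 hpf (40.9%). Between 24 and 48 hpf, wider peaks did not go with fewer peaks, since 48 hpf peaks were narrower but slightly fewer per region. The part of sequencing depth or fragment length in these differences was not tested.

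**Figure D1:**
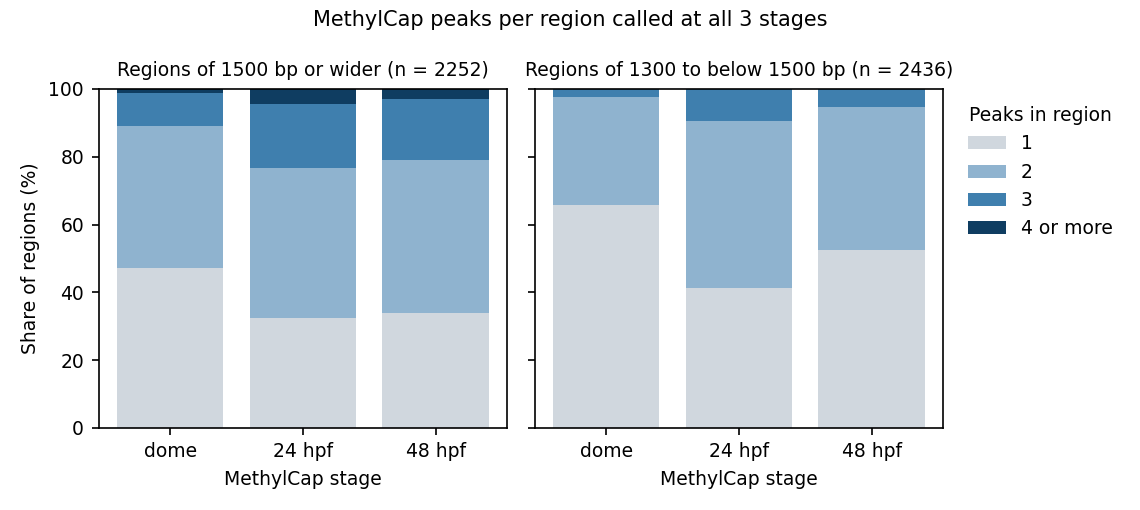
Share of regions (percent) with 1, 2, 3, or 4 or more MethylCap peaks at each stage, for the 2252 regions of 1500 bp or wider and for the 2436 regions of 1300 to 1499 bp called at all 3 stages. More than 1 peak was present in 52.9% of the wide regions at dome and in 67.6% and 66.3% at 24 and 48 hpf.

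Dome and 24 hpf peaks filled more of the wide regions than 48 hpf peaks did. Of the bases, 79.9% lay in dome peaks, 78.9% in 24 hpf peaks and 61.8% in 48 hpf peaks. In regions of 1300 to 1499 bp the order was the same, with 81.2%, 77.6% and 65.6%. The whole 48 hpf list also covered the least, 72.0 Mb against 97.4 Mb at dome and 118.9 Mb at 24 hpf. The part of that in the lower fill was not tested. Peaks of all 3 stages covered 43.6% of the bases of wide regions, peaks of exactly 2 stages 33.5%, and peaks of 1 stage alone 22.9%. The part common to all stages was interrupted in most regions. It formed 1 stretch in 583 regions (25.9%) and several in 1617 (71.8%), and in 52 regions no base was common to all 3. The longest common stretch had a median of 445 bp. A dome peak reached the left end of the region in 40.4% of cases, a 24 hpf peak in 39.6% and a 48 hpf peak in 20.2%.

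Summits of different stages did not generally fall on the same position within a wide region. The nearest 24 hpf summit lay a median of 187 bp from a dome summit, and the nearest 48 hpf summit 198 bp. Of the dome summits, 31.0% had a 24 hpf summit within 100 bp. In the narrower regions called at every stage the median distance from dome to 24 hpf summits was 76 bp and 59.8% lay within 100 bp. The class next in width, 1300 to 1499 bp, was nearer to the wide regions, with 151 bp and 38.7%. A wide region leaves more room for summits to differ, and its part in this contrast was not tested. Within a region, neighbouring summits of the same stage were a median of 836 bp apart at dome, 725 bp at 24 hpf and 705 bp at 48 hpf.

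The region with the most peaks lay on chromosome 21 from 31510703 to 31514435 on danRer7 and spanned 3733 bp. It held 6 dome peaks, 5 peaks of 24 hpf and 4 of 48 hpf, and its highest fold was 3.001, 3.19 and 3.28 at the 3 stages. The dome summits were spread along it from 385 to 3561 bp after its start. No H3K27me3 peak was called there. The widest region, of 3878 bp on chromosome 4 from 50278944 to 50282821, held 2, 3 and 4 peaks at dome, 24 and 48 hpf, with a highest fold of 2.59, 3.47 and 2.78. Another very wide region, on chromosome 1 from 36020926 to 36024776 (3851 bp), held 3, 4 and 3 peaks with a highest fold of 3.11, 3.56 and 3.53. All 3 thus combined great width with folds below the median of the wide regions.

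MethylCap fold enrichment, which the peak caller reports at the summit over its local background, is given here as the highest value of any peak of a stage in the region. Its median over the wide regions was 4.26 at dome (range 1.72 to 11.6), 4.38 at 24 hpf (1.78 to 12.5) and 4.50 at 48 hpf (1.79 to 12.2). The narrower regions called at every stage had medians of 4.50, 4.64 and 4.53. The wide regions were thus slightly below the narrower ones in fold, although their highest value was often drawn from several peaks. In significance they stood higher than all narrower regions together, but not higher than the regions next in width. The median of the highest −log10 q was 8.25, 8.79 and 7.10 at dome, 24 and 48 hpf, against 6.74, 7.43 and 5.51 in the narrower regions. In regions of 1300 to 1499 bp it was 8.81, 8.86 and 7.46. This value too was often drawn from several peaks.

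Fold did not rise steadily with width. Among regions called at all stages, the median dome fold rose from 4.26 at 250 to 499 bp to 4.88 at 1000 to 1299 bp. It then fell to 4.46 at 1500 to 1749 bp and 3.56 at 2500 to 2999 bp, and was 3.73 in the 38 regions of 3000 bp or more. The values of 24 hpf (4.40, 4.89, 4.59, 3.63 and 3.70) and of 48 hpf (4.44, 5.09, 4.73, 3.83 and 3.64) rose and fell in the same way up to 2999 bp, but in the widest class that of 48 hpf was lower than in the class before it. Regions just inside and just outside the width limit show the spread at a given width. The 3 narrowest members, all of 1500 bp, had dome folds of 3.60, 5.86 and 6.87, and the first 3 regions of 1499 bp had 3.45, 6.41 and 2.73.

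**Figure D2:**
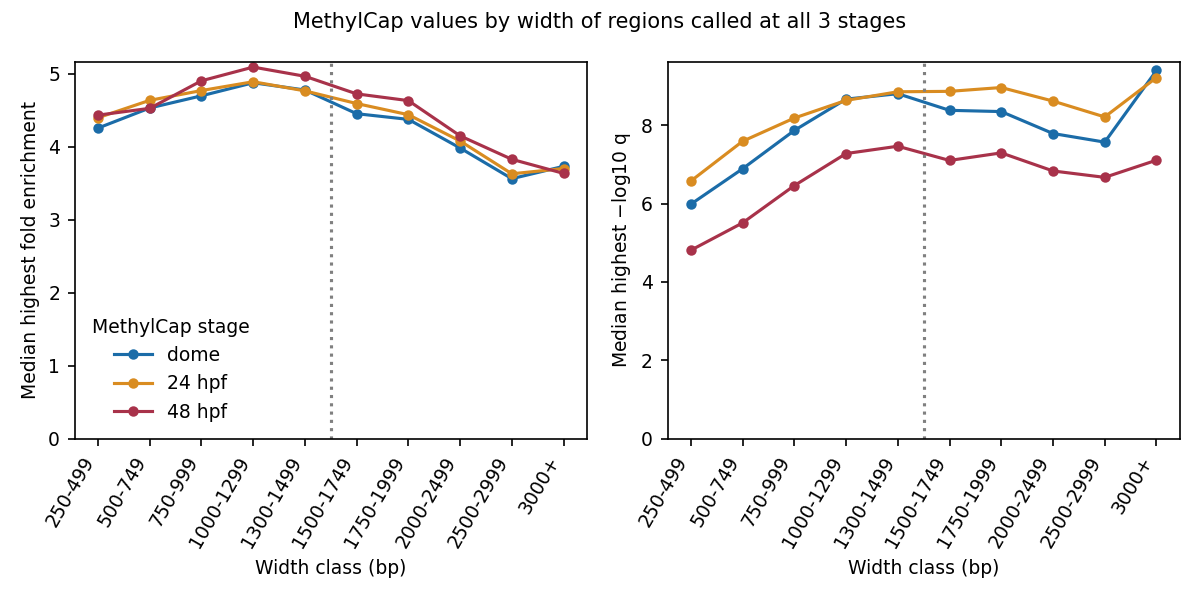
Median of the highest MethylCap fold enrichment (left) and of the highest −log10 q (right) per region, by width class in bp, for regions called at all 3 stages; the dotted line marks the 1500 bp limit. Median dome fold was 4.88 at 1000 to 1299 bp, 4.46 at 1500 to 1749 bp and 3.56 at 2500 to 2999 bp.

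Folds of a wide region were similar at the 3 stages. The fold at 48 hpf divided by that at dome had a median of 1.05, and 90% of regions lay between 0.778 and 1.46. From dome to 48 hpf, 0 regions were more than 2-fold higher and 1 was more than 2-fold lower. From dome to 24 hpf these numbers were 0 and 2, and from 24 to 48 hpf they were 1 and 0. Changes of this size were thus found in 4 of the 2252 regions. From dome to 48 hpf, regions of 1300 to 1499 bp had 1 higher and 3 lower, with 90% between 0.748 and 1.47, and the 115796 narrower regions had 563 and 358, with 90% between 0.679 and 1.57. Across the wide regions, log2 folds of dome and 48 hpf had a Pearson correlation of 0.79 (n = 2252 regions of the same 2 libraries, with CpG content and mappability of each region in common), across regions of 1300 to 1499 bp 0.78, and across all narrower regions 0.57. From dome to 48 hpf the spread was thus close to that of the regions next in width. From dome to 24 hpf, regions of 1300 to 1499 bp had 2 higher and 0 lower. From 24 to 48 hpf they had 4 higher and 6 lower, with 90% between 0.723 and 1.51. In the wide regions 90% lay between 0.765 and 1.43 for that pair, a somewhat smaller spread. The fold of a wide region was more often the maximum of several peaks, so the classes are not like for like.

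The region more than 2-fold lower at 48 hpf than at dome lay on chromosome 23 from 29682855 to 29684364. Its fold was 9.08 at dome, 7.37 at 24 hpf and 4.53 at 48 hpf, and a dome H3K27me3 peak with a fold of 2.95 covered 21.9% of it. The largest relative rise from dome to 48 hpf was on chromosome 8 from 478961 to 480592. The fold there was 3.41 at dome, 3.90 at 24 hpf and 6.50 at 48 hpf. No H3K27me3 was called there. A region on chromosome 5 from 65811685 to 65813222 had folds of 4.53, 5.42 and 8.44. In all 3 of these regions the value of 24 hpf lay between those of dome and 48 hpf. The other regions with a change of more than 2-fold were named after their values were seen. They were more than 2-fold lower at 24 hpf than at dome or at 48 hpf, but changed less between dome and 48 hpf. That choice alone puts their lowest fold at 24 hpf. On chromosome 4 from 39692467 to 39694125 the folds were 9.07, 4.08 and 5.04. On chromosome 11 from 46450375 to 46452031 they were 9.37, 4.38 and 5.75, and on chromosome 23 from 19404495 to 19405999 they were 4.77, 3.55 and 7.73.

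The wide regions were found on every chromosome, with 0.900 per Mb below 30 Mb of chromosome 4 and 1.20 to 1.98 per Mb on the other 24 chromosomes. On chromosome 4 from 30 Mb to its end, a part known for its repeats and heterochromatin, 153 regions gave 4.77 per Mb. There they made up 3.97% (3.39 to 4.63%) of the regions called at every stage, compared with 1.85% (1.77 to 1.93%) on the other chromosomes. Their median width was 1764 bp, against 1700.5 bp on the other chromosomes, and their median fold at dome, 24 and 48 hpf was 3.91, 4.02 and 4.10, against 4.29, 4.40 and 4.53. Within 1 Mb of a chromosome end there were 123 regions, or 2.46 per Mb, compared with 1.63 per Mb elsewhere.

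Most wide regions stood alone, but some lay close together. The median gap to the nearest other wide region was 178058.5 bp. Another wide region lay within 10 kb of 137 (6.08%, 5.17 to 7.15%), compared with 82 of the 2436 regions of 1300 to 1499 bp (3.37%, 2.72 to 4.16%), which were more numerous. Joined over gaps of up to 10 kb, the wide regions formed 54 pairs and 8 larger clusters, of which 11 of the 62 were on chromosome 4 and 6 on chromosome 5. In windows of 1 Mb the variance of the count was 1.65 times the mean, and 1.22 times for regions of 1300 to 1499 bp. The fullest window, from 44 to 45 Mb on chromosome 5, held 14 wide and 124 narrower regions, and the next, from 50 to 51 Mb on chromosome 4, held 12 and 114. Over all wide regions, a mean of 1.61 other regions called at every stage lay within 10 kb, compared with 1.59 around regions of 1300 to 1499 bp and 1.798 around all narrower ones.

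Both of the largest clusters belonged to a regular series on chromosome 5. Between 43998571 and 44293792, 14 wide regions lay in clusters of 5, 6 and 3, and their starts within a cluster were 6925 to 7248 bp apart (median of 11 steps 7176 bp). Their widths were all between 1756 and 1867 bp, and 13 of the 14 had a single peak at each stage. Folds were high and alike, from 5.87 to 8.99 at dome (median 7.76), 7.22 to 9.38 at 24 hpf (median 8.18) and 6.54 to 8.42 at 48 hpf (median 7.55). Every one of the 14 exceeded the wide regions' median fold at each stage. A dome H3K27me3 peak, with a fold of 2.67 to 3.28, met 13 of them, and a 48 hpf H3K27me3 peak met 1. The sources used here do not state how multi-mapping reads were handled, and the part of that in these values was not tested.

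**Figure D3:**
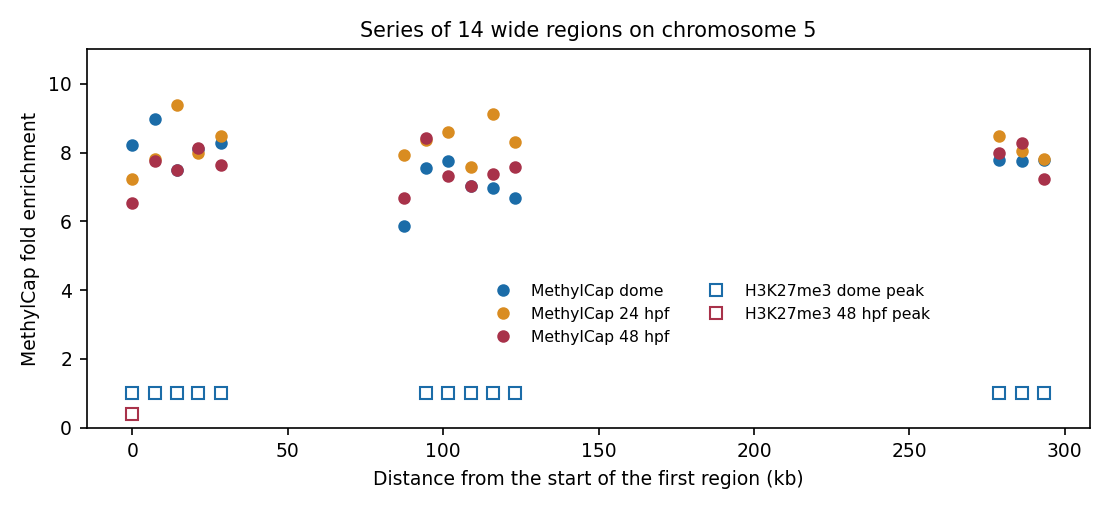
MethylCap fold enrichment at 3 stages (circles) of the 14 wide regions of the chromosome 5 series, against distance in kb from the start of the first; open squares near the axis mark regions with an H3K27me3 peak and have no fold. Folds lie between 5.87 and 9.38, and 13 regions have a dome H3K27me3 peak while 1 has a 48 hpf peak.

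H3K27me3 was found in a minority of the wide regions at dome and in few at 48 hpf. A dome H3K27me3 peak overlapped 402 of 2252 regions (17.9%, 16.3 to 19.5%); over all merged regions the share was 3.88%, and over the narrower regions called at every stage 6.08%. A 48 hpf peak overlapped 65 (2.89%, 2.27 to 3.66%), against 0.401% of all merged regions and 0.512% of the narrower ones. Both stages were present in 57 regions (2.53%, 1.96 to 3.27%), against 0.25% and 0.357%. Dome alone accounted for 345 regions (15.3%), 48 hpf alone for 8 (0.355%), and 1842 regions (81.8%, 80.1 to 83.3%) had none. Without chromosome 4 the shares were 16.2% at dome and 2.56% at 48 hpf.

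A wide region meets other peaks more readily than a narrow one, and the shares grew with width on both sides of the limit. A dome H3K27me3 peak was present in 4.27% (4.08 to 4.47%) of regions of 250 to 499 bp, 9.58% of those of 1000 to 1299 bp and 13.0% (11.7 to 14.4%) of those of 1300 to 1499 bp. At 1500 to 1749 bp the share was 16.1% (14.1 to 18.2%), and at 3000 bp or more it was 50% (34.8 to 65.2%, 19 of 38). The intervals on the 2 sides of the limit overlap slightly, which does not show that these shares are equal. Counted per kb of region, dome H3K27me3 peaks numbered 0.106 at 250 to 499 bp, 0.0858 at 1000 to 1299 bp, 0.103 at 1500 to 1749 bp and 0.175 at 3000 bp or more. By bases, 2.48%, 3.49%, 5.11% and 15.9% of these classes lay in dome H3K27me3 peaks. The number per kb was thus similar below 3000 bp and higher in the 38 widest regions. The share of bases grew over the classes named, but not steadily within the wide regions. It was 6.80% at 1750 to 1999 bp, 5.45% at 2000 to 2499 bp and 5.04% at 2500 to 2999 bp. A peak of either stage that only touched a region was counted in full. This raises the number per kb most in narrow regions, so similar numbers do not show a similar density at all widths. At 48 hpf the share of regions was 1.27% (0.898 to 1.801%) at 1300 to 1499 bp, 1.97% (1.34 to 2.89%) at 1500 to 1749 bp and 15.8% (7.44 to 30.4%; 6 of 38) at 3000 bp or more, but 0.935% (1 of 107) at 2500 to 2999 bp. Peaks of 48 hpf per kb numbered 0.00841 at 250 to 499 bp and 0.00704 at 750 to 999 bp. They then rose to 0.0123 at 1500 to 1749 bp and 0.0243 at 2000 to 2499 bp. They numbered 0.00347 at 2500 to 2999 bp and 0.0476 at 3000 bp or more.

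**Figure D4:**
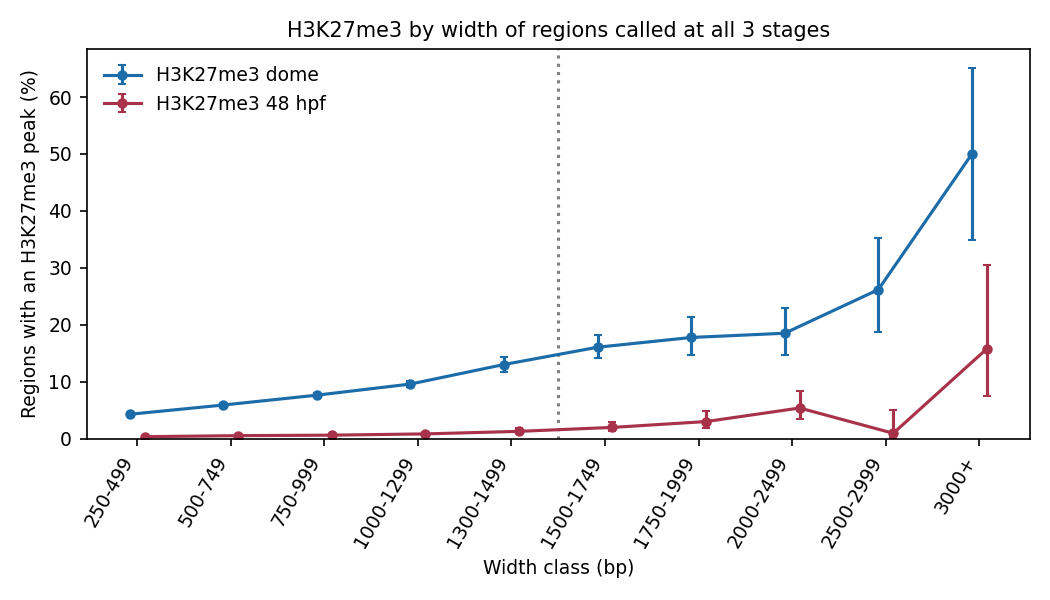
Share of regions called at all 3 MethylCap stages (percent) that overlap an H3K27me3 peak of dome or 48 hpf, by width class in bp; bars are Wilson 95% intervals and the dotted line marks the 1500 bp limit. The dome share was 13.0% at 1300 to 1499 bp, 16.1% at 1500 to 1749 bp and 50% in the 38 regions of 3000 bp or more.

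H3K27me3 calls were concentrated inside the wide regions rather than around them. Of all bases in wide regions, 5.88% lay in dome H3K27me3 peaks and 1.22% in 48 hpf peaks, compared with 1.32% and 0.471% of the chromosome span. In the 500 bp at the centre, dome peaks covered 6.68% of bases, and at 3 kb before and after the centre they covered 1.13% and 1.35%. At 7 kb the cover was 2.34% and 2.40%. The same bins for 48 hpf peaks gave 1.29% at the centre, and 0.350% and 0.479% at 3 kb. Regions of 1300 to 1499 bp had a like shape, with dome cover of 5.33% at the centre and 0.764% and 1.06% at 3 kb. All narrower regions called at every stage had 3.08%, 1.07% and 1.05% in the same dome bins. The concentration at dome was thus not particular to the wide regions. For 48 hpf peaks, regions of 1300 to 1499 bp had 0.770% at the centre and 0.375% and 0.428% at 3 kb. All narrower regions had 0.322%, 0.328% and 0.339%, so cover at the centre was not above that at 3 kb. It did exceed the cover at 1.5 kb before and after the centre, which was 0.191% and 0.189%. Dome cover at 7 kb was 1.46% and 1.47% around regions of 1300 to 1499 bp, and 1.34% and 1.30% around all narrower ones. Of the wide regions' 418 dome H3K27me3 peaks, 325 (77.8%) lay wholly within the region they met, against 70.2% at 1300 to 1499 bp. Their median width was 485.5 bp and their median fold 3.06, against 396 bp and 3.15 for dome peaks elsewhere. The 65 peaks of 48 hpf in the wide regions were wider, with a median of 825 bp, at a median fold of 3.16. Elsewhere 48 hpf peaks had a median of 760 bp and a median fold of 3.11. Of the 65, 58 (89.2%) overlapped a dome peak, compared with 90.3% at 1300 to 1499 bp. The share was 69.7% over all narrower regions and 62.8% over all merged regions. The dome list is much longer than that of 48 hpf, with 31983 peaks against 6434, and the wide regions met 1.31% and 1.01% of them. The part of list length in the difference between stages was not tested.

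The wide regions with H3K27me3 at both stages had the more significant MethylCap peaks. In these 57 regions the median highest −log10 q of MethylCap was 34.6 at dome, 24.99 at 24 hpf and 20.9 at 48 hpf, and in the 1842 regions without H3K27me3 it was 7.93, 8.51 and 6.78. The median folds were 5.42, 5.53 and 5.70 in the first set and 4.23, 4.34 and 4.47 in the second. They were also less divided, with a mean of 1.30, 1.60 and 1.51 peaks at the 3 stages, against 1.68, 2.002 and 1.92. Peaks of 48 hpf covered 82.7% of their bases, against 59.7%. The 345 regions with H3K27me3 at dome alone lay between these sets in significance, at 10.002, 10.1 and 8.30, with folds of 4.32, 4.58 and 4.60. Of the 57 regions, 12 (21.1%) lay on chromosome 4 beyond 30 Mb, compared with 14.2% of the 345 and 4.99% of the 1842.

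Ordered by their highest MethylCap −log10 q at dome, the wide regions went from few H3K27me3 calls to a dome call in nearly every region. An overlap of 1 bp was enough for a call, and the share of bases covered was not measured by these classes. Over all 402 wide regions with a dome H3K27me3 peak, the median share of the region covered was 24.5%. Below 6 a dome H3K27me3 peak was present in 37 of 455 regions (8.13%, 5.96 to 11.01%), between 10 and 15 in 106 of 512 (20.7%, 17.4 to 24.4%), and from 15 to 30 in 62 of 158 (39.2%, 32.0 to 47.0%). At 30 or more it was present in 56 of 61 (91.8%, 82.2 to 96.4%). The share with a 48 hpf peak was 0.220% in the lowest class and 47.5% (35.5 to 59.8%; 29 of 61) in the highest, and all 29 also had a dome peak. Regions of 1300 to 1499 bp had 8.77% at dome in the lowest class and 91.3% (73.2 to 97.6%; 21 of 23) in the highest. All narrower regions called at every stage had 4.48% and 65.3% (59.0 to 71.0%; 156 of 239). The rise was thus seen at every width compared. Without distal chromosome 4 and the chromosome 5 series, 34 of 38 wide regions in the highest class (89.5%) had a dome peak and 21 (55.3%) a 48 hpf peak. No source used here says whether the caller had a control library, and the part of one in this relation was not tested.

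**Figure D5:**
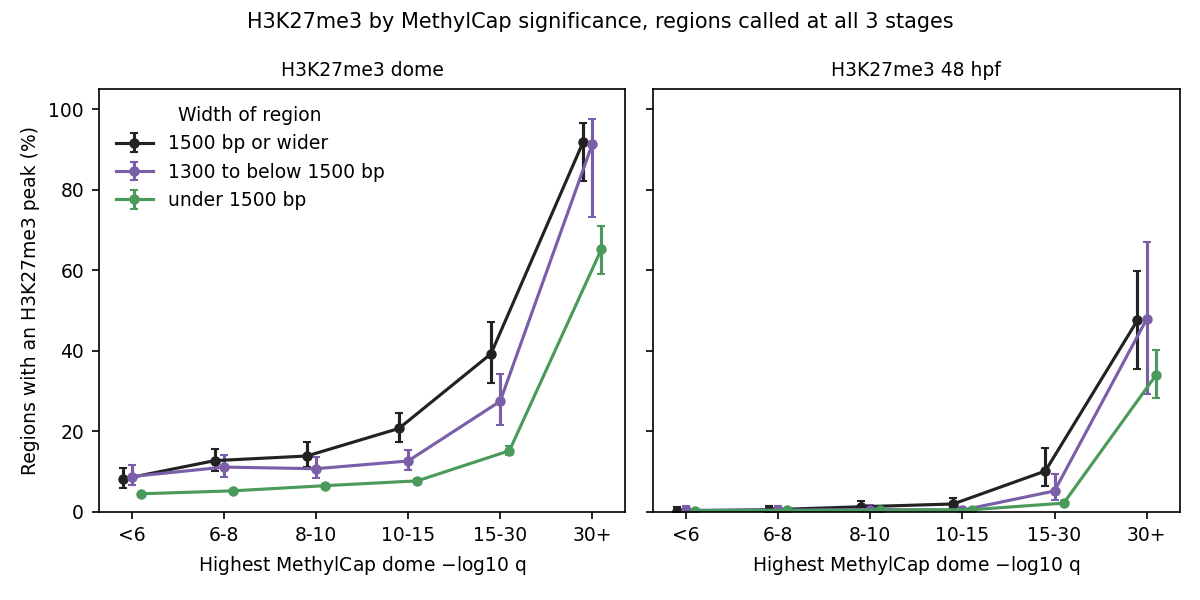
Share of regions (percent) with an H3K27me3 peak of dome (left) or 48 hpf (right), by the highest MethylCap −log10 q at dome in the region, for 3 widths; bars are Wilson 95% intervals, and regions under 1500 bp include those of 1300 to 1499 bp. In the class of 30 or more, 91.8% of wide regions had a dome peak and 47.5% a 48 hpf peak.

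H3K27me3 was more frequent in wide regions with an undivided MethylCap peak at each stage. Where each stage had a single peak (198 regions), 40.9% (34.3 to 47.9%) held a dome H3K27me3 peak and 10.6% (7.04 to 15.7%) a 48 hpf peak. The chromosome 5 series gave 13 of these 198 regions, all with a dome H3K27me3 peak, and the intervals treat them as independent. Among the 240 regions with 8 or more peaks over the 3 stages, 17.5% (13.2 to 22.8%) and 1.67% (0.650 to 4.21%) did, although these were wider, with a median of 2309.5 bp against 1605 bp. The classes between them, with 4 or 5 and with 6 or 7 peaks in all, had 17.0% and 13.3% at dome and 2.69% and 1.61% at 48 hpf. The share thus did not fall steadily with peak number, and the single-peak class stood above the other 3. The undivided regions also had higher folds, with medians of 5.48, 5.39 and 5.93 at dome, 24 and 48 hpf, compared with 3.69, 3.78 and 3.85. On chromosome 4 beyond 30 Mb, 61 of 153 wide regions (39.9%, 32.5 to 47.8%) had a dome H3K27me3 peak and 12 (7.84%) a 48 hpf peak. The narrower regions there also had more H3K27me3 than those of the whole genome, with 14.2% at dome and 1.35% at 48 hpf.

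Single regions show how the marks lay on each other. By the sum of its ranks at the 3 stages, fold was highest on chromosome 17 from 53840501 to 53842673, with 11.6 at dome, 11.9 at 24 hpf and 12.2 at 48 hpf. The dome summit lay 902 bp, the strongest 24 hpf summit 924 bp and the strongest 48 hpf summit 969 bp from its start, so the 3 differed by less than 100 bp. Its −log10 q was 155, 149 and 142. H3K27me3 peaks covered 63.6% of it at dome (fold 5.58) and 68.3% at 48 hpf (fold 6.54). Next in the order by fold was a region on chromosome 5 from 74425592 to 74427508, with 9.12, 12.3 and 11.7, where H3K27me3 covered 85.3% at dome and 22.1% at 48 hpf.

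By the number of bases covered, the most H3K27me3 at both stages was on chromosome 4 from 61296388 to 61300124, a region of 3737 bp. Dome H3K27me3 covered 91.8% of it and 48 hpf H3K27me3 88.6%, with H3K27me3 folds of 1.51 and 2.11, and its MethylCap fold was 3.63, 1.92 and 2.03. On chromosome 15 from 9609404 to 9611156 H3K27me3 peaks of both stages (folds 4.20 and 4.21) enclosed the whole MethylCap region, whose folds were 6.13, 6.28 and 5.82. A region on chromosome 20 from 6555422 to 6557132 had MethylCap folds of 7.85 at dome and 4.63 and 4.76 later, with H3K27me3 folds of 5.40 at dome and 5.06 at 48 hpf. Calls of both marks thus lay on the same bases in these regions, in libraries made from whole embryos. On chromosome 4 the calls were wide but low in fold, while on chromosomes 15 and 20 both marks were above the medians of their lists.

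Other regions had H3K27me3 at 1 stage only. On chromosome 8 from 40545366 to 40548600 a dome H3K27me3 peak of 3057 bp (fold 3.16) covered 94.5% of a region with MethylCap folds of 5.21, 5.72 and 5.59. On chromosome 22 from 34572203 to 34574641 a dome H3K27me3 peak (fold 3.59) covered 85.9% of a region that had a single MethylCap peak at each stage, with folds of 5.60, 5.74 and 6.96. The opposite case was rare. On chromosome 24 from 4925064 to 4926584 a 48 hpf H3K27me3 peak of 2227 bp (fold 2.58) enclosed a region with MethylCap folds of 5.96, 5.37 and 4.91 and no dome H3K27me3 call. With 1 library per stage, an absent call may lie below the detection limit.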

How the data were processed

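The starting material was 5 deposited peak lists on build danRer7. The submitters' processing notes name CASAVA 1.8.2, Bowtie2 2.2.1, SAMtools and MACS2; parameters, use of a control library and pooling are not stated there. The MethylCap lists have the 10-column narrow layout of MACS2 with 1 summit per peak, and the H3K27me3 lists the 9-column broad layout, which holds no summit. H3K27me3 folds are thus not summit values. The deposited fold (a ratio to the caller's background), −log10 p and −log10 q, and the deposited score are the authors' values and were used to describe or rank peaks within a list; summit positions are from the last deposited column. The lists hold no read counts, so depth is unknown, and peaks outside chromosomes 1 to 25 (0 to 7 per list) were set aside.

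Peaks sharing at least 1 bp were merged with Python 3.11.15, pandas 2.3.3 and SciPy 1.17.1, and merging, overlap and gap counts were tested on simulated peaks. Regions under 1500 bp called at all stages, and those of 1300 to 1499 bp, served for comparison. Named regions were the extremes by width, fold, peak number, H3K27me3 cover and change in fold. The members and lists were chosen with earlier results of these data known; classes by −log10 q, the 1300 to 1499 bp class and the chromosome 5 series were chosen after their values were seen. Coordinates count from 1. No genome or gene annotation of danRer7 was used here, so sequences, CpG content and genes are not analysed here.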

Additional observations from a re-analysis of the deposited data

How the results depend on the processing

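Values follow in the order of the number of regions; the share with H3K27me3 at dome, at 48 hpf and at both; the share within 10 kb of another wide region; and the share with more than 1 peak at dome, 24 and 48 hpf. As reported they are 2252; 17.9%, 2.89% and 2.53%; 6.08%; and 52.9%, 67.6% and 66.3%. Merging peaks up to 100 bp apart gave 3393; 15.9%, 2.24% and 1.92%; 8.28%; and 64.4%, 78.0% and 70.0%. A width limit of 1000 bp gave 14739; 11.4%, 1.21% and 1.03%; 20.4%; and 27.1%, 46.7% and 38.0%. At 2000 bp the values were 480; 22.7%, 5.21% and 4.58%; 2.92%; and 73.5%, 79.2% and 85.8%. With the higher-scoring 50% of each MethylCap list they were 1239; 23.9%, 4.68% and 4.28%; 4.12%; and 20.5%, 37.3% and 35.6%. Equal peak numbers gave 1823 regions and moved 4 shares beyond their intervals. These were H3K27me3 at dome (19.7%), neighbours within 10 kb (4.83%), and several peaks at dome (42.5%) and 24 hpf (40.9%). Without chromosome 4 there were 2072 regions, and only the dome H3K27me3 share left its interval, at 16.2%. Asking for an overlap of 50% of the shorter feature kept all 3 H3K27me3 shares within their intervals, and the higher-scoring 50% of each H3K27me3 list lowered them to 7.46%, 1.20% and 1.15%. Fewer regions or peaks enter under the stricter settings by construction; other causes were not tested. The number of regions and their layout therefore hold only for these lists and limits. No setting evened the lengths of the 2 H3K27me3 lists, so the order of the dome and 48 hpf shares was not put to a test. No paired analysis was possible because each group had 1 library, and no replicate could be left out.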

Other observations

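Of the 2297 merged regions of 1500 bp or more, 45 lacked a peak of at least 1 stage and stand outside the set described above. The missing stage was 48 hpf in 35 regions, dome in 6 and 24 hpf in 3, and 1 region was called at 24 hpf alone. Their widths ran from 1501 to 2406 bp (median 1584 bp), and the median fold where a peak was present was 3.49 at dome, 3.88 at 24 hpf and 3.87 at 48 hpf. A dome H3K27me3 peak met 4 of them and a 48 hpf peak met 2.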
